A study of Mus musculus with 14 samples.

Results

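CTCF sites that were called in every CTCF library and that lay in chromatin acetylated in both genotypes are described here. A site was the merged interval of CTCF peaks sharing at least 1 bp over the 8 CTCF peak lists. A member had a peak in all 8 lists and overlapped, by at least 1 bp, a broad peak of histone H3 acetylated at lysine 27 (H3K27ac) in both the wild-type (WT) and the CTCF-K20R list of day 4. Of 86652 sites, 36440 had a peak in all 8 lists, and 3550 of these were members. The members were compared with the 30193 sites called in all 8 lists that overlapped neither H3K27ac list, termed unmarked sites. A further 1996 sites overlapped the CTCF-K20R list only and 701 the WT list only. The members were thus chosen by measured peak calls in these same libraries, so the presence of CTCF and H3K27ac at them is not a result.

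The cells were E14Tg2A mouse embryonic stem cells (mESCs), grown on mitomycin C-inactivated feeder cells with serum, leukemia inhibitory factor (LIF) and the 2 inhibitors CHIR99021 and PD0325901, sampled at day 0. Their embryoid bodies (EBs), made by the hanging-drop method in serum without LIF, were sampled at day 4. In CTCF-K20R cells, CRISPR/Cas9 had changed lysine 20 of CTCF to arginine, which cannot be acetylated. Chromatin immunoprecipitation sequencing (ChIP-seq) of CTCF was done in 2 libraries for each of D0_WT, D0_K20R, D4_WT and D4_K20R, and that of H3K27ac in 1 library per genotype at day 4. The number of mESC clones behind each genotype was not given in the sources used here, so genotype and clone cannot be told apart. EBs hold a mixture of cell types, so a weaker signal per cell and fewer cells with the signal cannot be told apart.

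CTCF is a zinc finger protein that binds a long, asymmetric DNA motif. It can halt cohesin as cohesin extrudes chromatin loops, and the side on which it halts cohesin depends on the direction of the motif, so the direction of a site bears on which DNA it can separate or bring together. H3K27ac is deposited by the acetyltransferases CBP and p300 and is found at active promoters and enhancers, where CTCF sites can lie next to start sites of transcription or at the borders of acetylated domains.

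Before the values, the libraries need a remark. CTCF lists held 41360 to 77657 peaks after every library had been brought to the same number of reads. Whole-number read pileups were recovered at the sites, and chi-square per site between replicates was 1.54 in D0_WT and 1.53 in D4_K20R but 0.798 in D0_K20R and 0.637 in D4_WT. The replicates of D0_K20R and of D4_WT thus differed by less than the sampling noise (p = 1 each, chi-square test over 36440 sites). They also shared identical peak starts at 1.31% and 4.72% of the peaks in the smaller list. These shares were 0.569% and 0.530% in the other pairs and 0.418% to 0.953% between libraries of different groups. Each of these pairs was therefore averaged and counted as 1 sample, which left 6 samples, and counts from a model that treats all 8 libraries as separate are given beside those with the pairs counted once. Enrichment was also spread more widely over sites in CTCF-K20R, where the quartiles of log2 fold enrichment lay 1.40 to 1.65 apart, than in WT, where they lay 0.864 to 1.07 apart. In the marker check of the EBs, H3K27ac lay within 3 kb of a start site of 11 of 18 pluripotency genes in WT and 14 in CTCF-K20R, of 10 of 20 mesoderm genes in WT and 3 in CTCF-K20R, of 0 of 16 cardiac genes in WT and 1 in CTCF-K20R, and of 4 of 16 neural and endoderm genes in each. The mesoderm list included Apex1, which was marked in both genotypes and is not itself a mesoderm marker. The genotypes thus differed in their marked mesoderm genes, and the part of cell composition in any CTCF difference was not tested.

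The 2000 strongest sites were used to learn a CTCF motif 20 bp long, whose consensus read TGGCCACCAGGGGGCGCTGG. This reading is called the direction of the motif below. The following GRCm38 (mm10) sequences, 5′ to 3′ on the strand of the motif, show what the strongest and weakest members look like. Capitals mark the 20 bp scored as a motif. The first 4 belong to 4 of the 5 members with the highest mean enrichment, and the last 2 to members among those with the lowest, the second of which held no match.
Gdf15, chr8:70629861-70629940, minus strand: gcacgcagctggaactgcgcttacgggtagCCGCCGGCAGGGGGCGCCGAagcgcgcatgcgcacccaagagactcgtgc
Exosc8, chr3:54735439-54735518, plus strand: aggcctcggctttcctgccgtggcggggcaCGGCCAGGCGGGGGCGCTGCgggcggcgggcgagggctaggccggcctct
Dnajc11, chr4:151933611-151933690, plus strand: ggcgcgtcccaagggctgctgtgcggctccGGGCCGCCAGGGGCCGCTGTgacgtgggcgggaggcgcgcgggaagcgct
Nipsnap2, chr5:129724962-129725041, minus strand: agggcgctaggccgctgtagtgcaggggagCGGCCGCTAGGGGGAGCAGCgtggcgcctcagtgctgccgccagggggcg
Aaed1, chr13:64312773-64312852, plus strand: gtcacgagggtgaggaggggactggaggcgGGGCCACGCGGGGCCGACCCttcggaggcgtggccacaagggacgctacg
Mrps36, chr13:100748956-100749035, plus strand: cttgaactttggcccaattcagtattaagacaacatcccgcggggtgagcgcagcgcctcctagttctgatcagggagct
The next 4 are among the members that differed most between genotypes at day 4. CTCF-K20R was higher at the first 2, in an intron of Zfhx3 and in an intron of Zfp385a, and lower at the last 2, in a coding exon of Men1 and near Mir7671, which held no match.
Zfhx3 intron, chr8:108759919-108759998, minus strand: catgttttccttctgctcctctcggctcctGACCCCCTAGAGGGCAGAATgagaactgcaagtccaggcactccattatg
Zfp385a, chr15:103324130-103324209, minus strand: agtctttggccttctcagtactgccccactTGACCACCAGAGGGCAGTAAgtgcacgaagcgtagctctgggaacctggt
Men1, chr19:6339939-6340018, plus strand: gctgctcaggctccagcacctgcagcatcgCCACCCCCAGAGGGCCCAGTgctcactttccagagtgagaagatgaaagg
Mir7671, chr11:53758847-53758926, plus strand: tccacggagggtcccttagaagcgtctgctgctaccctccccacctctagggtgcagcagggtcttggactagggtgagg

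Members were mostly promoter sites. A start site of transcription lay within 3 kb of the summit in 65.7% of members (2331 of 3550; 95% Wilson interval 64.1% to 67.2%) and in 17.2% of unmarked sites (16.8% to 17.6%). Within 500 bp these shares were 41.0% and 3.96%. Of the 2331 members near a start site, 1958 had a protein-coding gene as the nearest, 101 a lincRNA gene and 26 a miRNA gene. Summits lay upstream of the start site in 61.3% of them, and 55.5% of the unmarked sites near start sites did so. The most crowded stretch ran from 250 to 50 bp upstream, with 23.3% of these members, whereas 7.81% lay from 50 to 250 bp downstream. Summits fell in introns in 41.6% of members, between genes in 39.2%, in untranslated regions in 9.77%, in coding exons in 5.21% and in noncoding exons in 4.23%. These intervals treat sites as independent and cover counting error only.

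Sequence around the summits differed as well. The summit with 100 bp on each side held a median of 7 CpG dinucleotides in members and 2 in unmarked sites, and the median GC content was 55.7% and 47.8%. Windows reaching 250 bp to each side met criteria like those of a CpG island, a GC content of at least 50% and an observed over expected CpG ratio of at least 0.6, in 37.0% of members (35.4% to 38.6%) and in 2.31% of unmarked sites. A motif above the score that 5% of sequences shifted by 1 kb reach was present in 85.6% of members (84.4% to 86.7%) and 91.0% of unmarked sites. At the stricter 1% threshold, 55.9% of members and 65.7% of unmarked sites held one. Where a motif was present, it lay in DNA masked as a repeat in 17.1% of members and 31.4% of unmarked sites. More than 1 peak within a single list occurred at 8.06% of members and 2.71% of unmarked sites.

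**Figure D1:**
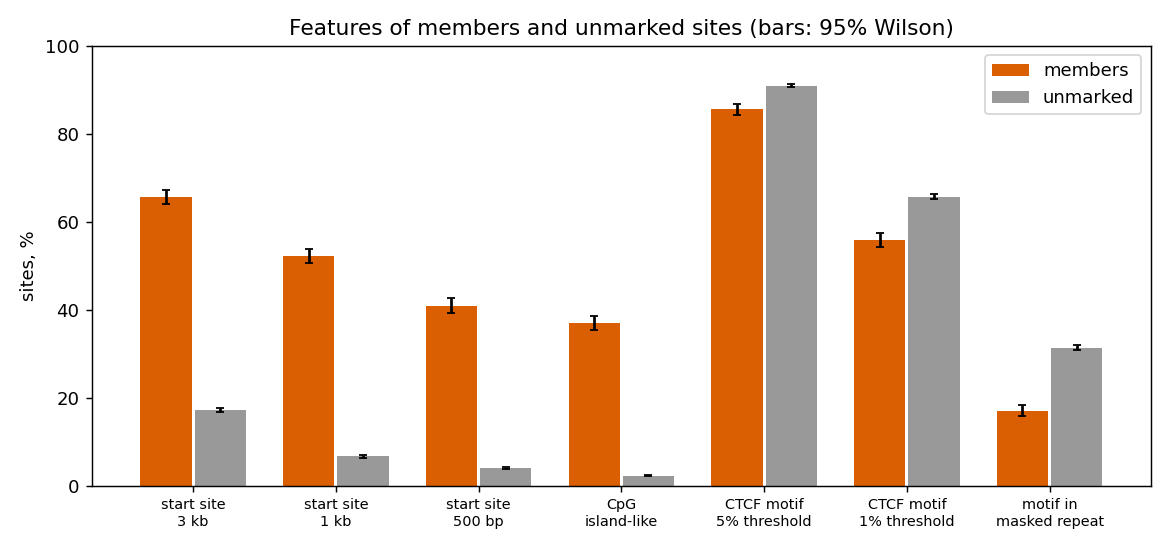
Percent of the 3550 members (orange) and the 30193 unmarked sites (grey) with each feature, with 95% Wilson intervals as error bars. Members were more often near start sites and in CpG island-like sequence, less often held a CTCF motif (85.6% against 91.0% at the 5% threshold), and their motifs lay less often in masked repeats.

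Calls in more lists did not go with a steady rise of the marked share. Sites with a peak in 1 list overlapped both H3K27ac lists in 10.2% of cases, those in 3 lists in 8.73% and those in 8 lists in 9.74% (9.44% to 10.1%). Over the autosomes and chromosome X, members made up from 5.76% of the sites called in all 8 lists on chromosome X to 12.9% on chromosome 11, and chromosome Y held 6 such sites, 4 of them members. At the border of the rule, 161 members overlapped H3K27ac by at most 50 bp in at least 1 list, with a median fold enrichment of 23.3, and 16 unmarked sites had a gap under 50 bp to both lists, with a median of 33.4.

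CTCF enrichment was higher at members than at unmarked sites in every library, although the difference depended on where the summit lay. Median fold enrichment of members and unmarked sites was 27.4 and 25.2 in the first D0_WT library and 18.3 and 14.6 in the second. In D0_K20R it was 33.1 and 26.6, then 32.2 and 26.0. In D4_WT it was 23.4 and 18.8, then 22.8 and 19, and in D4_K20R 19.8 and 16.5, then 36.1 and 25.5. The replicates of D0_WT and of D4_K20R lay far apart, so the comparison was made within libraries. The median log2 value of members exceeded that of unmarked sites by 0.302 ± 0.124 (SD, n = 6, higher in 6 of 6; two-sided exact sign-flip permutation p = 0.03125, the smallest that 6 samples can give). Sites more than 3 kb from start sites gave 0.307 ± 0.104 (SD, n = 6). When both sides were defined by the summit, with the 1926 sites whose summit lay inside both lists set against all 32430 sites whose summit lay inside neither, the difference over 8 libraries was 0.064 (exact sign-flip permutation p = 0.148). A wide site is more likely to touch a neighbouring H3K27ac peak, and members had a median width of 595 bp against 518 bp.

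The difference between genotypes in this contrast was small. Over both days, CTCF-K20R minus WT was 0.0918 log2 (exact permutation within day, p = 0.5 over 36 arrangements of 8 libraries and p = 0.556 over 9 arrangements with n = 6). It was 0.0934 at day 4 and 0.0902 at day 0 (exact permutation p = 1 each, where 2 against 2 cannot go below 0.333). On percentile ranks within libraries it turned to -3.06 points at day 4.

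Position along the acetylated interval separated members more clearly. The summit lay inside both H3K27ac peaks in 1926 members, inside 1 in 895, and inside neither in 729, where the flank of the site reached the mark but the summit did not. Median fold enrichment over the 8 libraries was 22.4, 27.6 and 33.0 in these classes, and 20.9 in unmarked sites. By library, the log2 median of members with the summit inside neither exceeded that of members with the summit inside both by 0.358 and 0.391 in D0_WT, 0.670 and 0.692 in D0_K20R, 0.312 and 0.306 in D4_WT, and 0.772 and 0.692 in D4_K20R. The mean was 0.534 ± 0.203 (SD, n = 6, higher in 6 of 6; exact sign-flip permutation p = 0.03125). Members with the summit inside both exceeded unmarked sites by 0.0950 ± 0.128 (SD, n = 6, higher in 4 of 6; exact sign-flip permutation p = 0.219). To overlap with the summit outside, a site must be wide enough to reach the mark, and median widths were 627 bp with the summit inside neither and 576 bp with it inside both.

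All 4 CTCF-K20R libraries showed a larger gap between these classes than all 4 WT libraries. The difference of the means was 0.365 log2 (exact permutation within day, p = 0.0556, the smallest that 36 arrangements of 8 libraries can give; with n = 6, exact permutation p = 0.111, the smallest of 9). Enrichment was also spread more widely in CTCF-K20R, and its part in the larger gap was not tested. Divided by the quartile spread of each library, the gap was 0.290 to 0.414 in WT and 0.418 to 0.504 in CTCF-K20R, with a difference of 0.133 quartile spreads. On percentile ranks the difference was 7.42 points.

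**Figure D2:**
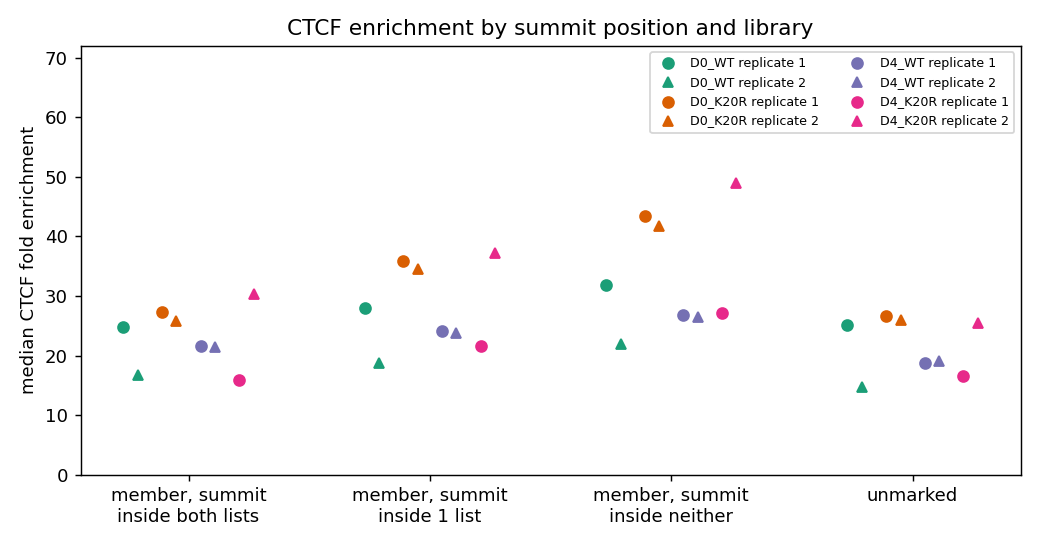
Median CTCF fold enrichment (vertical axis, from 0) in each of the 8 libraries for members with the summit inside both H3K27ac lists (1926), inside 1 list (895) or inside neither (729), and for the 30193 unmarked sites. Each point is 1 library, coloured by group, with circles for replicate 1 and triangles for replicate 2. Within each library the summit-outside class was higher than the summit-inside class, by 0.306 to 0.772 log2.

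Summits of sites called in all 8 lists were crowded just outside the edges of H3K27ac intervals and sparse just inside them. This count used the merged intervals of both lists and all 36440 sites, so it does not depend on the membership rule. Between 150 and 50 bp outside an edge lay 1298 summits, between 0 and 100 bp inside lay 156, and between 200 and 300 bp inside lay 588. The ratio of the first to the second was 8.32. It was 10.8 with the WT list alone, 7.65 with the CTCF-K20R list alone and 9.95 for sites over 3 kb from start sites. These windows were chosen after seeing the data, and windows that meet at the edge gave a smaller contrast. From 100 to 0 bp outside lay 912 summits. Within 50 bp of the edge, 216 lay outside and 81 inside. Median fold enrichment was 29.5 in the crowded stretch and 14 in the sparse stretch. Members had 432 summits from 100 to 0 bp outside, 82 from 0 to 100 bp inside and 263 from 100 to 250 bp inside. How far outside a member's summit can lie is set by the rule, since its flank must reach the mark. Along the relative length of the interval, 55.7% of members had the summit in the outer 25% on either side or beyond the edge, 20.7% being beyond it. Of the 2816 summits inside the interval, 1242 lay in its outer 25% on either side (44.1%), so that those inside were not gathered towards the edges.

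Motifs just outside the edge pointed inwards more often than not. Among members with a motif at the 1% threshold and the summit inside neither list, the motif pointed towards the middle of the H3K27ac interval in 65.6% (317 of 483; 61.3% to 69.7%). With the summit inside both lists this share was 52.3% (508 of 972; 49.1% to 55.4%). Taken by distance, 65.8% of members up to 250 bp outside the edge pointed inwards (456 sites; 61.3% to 69.996%). Just inside the edge the members' shares were 59.0% from 0 to 100 bp (39 sites; 43.4% to 72.9%) and 60.4% from 100 to 250 bp (139 sites; 52.1% to 68.2%), with intervals that overlap the one outside, and 50.3% more than 1 kb inside (588 sites; 46.3% to 54.4%). Over all sites called in 8 lists the share was 61.0% up to 250 bp outside (1342 sites; 58.3% to 63.5%), 52.6% inside (2215 sites; 50.5% to 54.7%) and 46.3% more than 10 kb away. Up to 250 bp outside the WT list alone, 64.6% of members pointed inwards, and outside the CTCF-K20R list alone 64.0% did. Sites over 3 kb from start sites gave 66.3% (193 members; 59.4% to 72.6%).

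A direction relative to genes was seen as well. Of members within 3 kb upstream of a start site, 65.1% had the motif on the strand of the gene (495 of 760; 61.7% to 68.4%), and downstream 52.1% did (239 of 459; 47.5% to 56.6%). A motif upstream of a gene and on its strand points towards the gene. Towards the nearest start site pointed 58.7% of members near one (55.9% to 61.4%) and 51.7% of unmarked sites near one (49.9% to 53.4%). The shares near edges and near start sites describe overlapping sets of members and are not independent of each other.

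**Figure D3:**
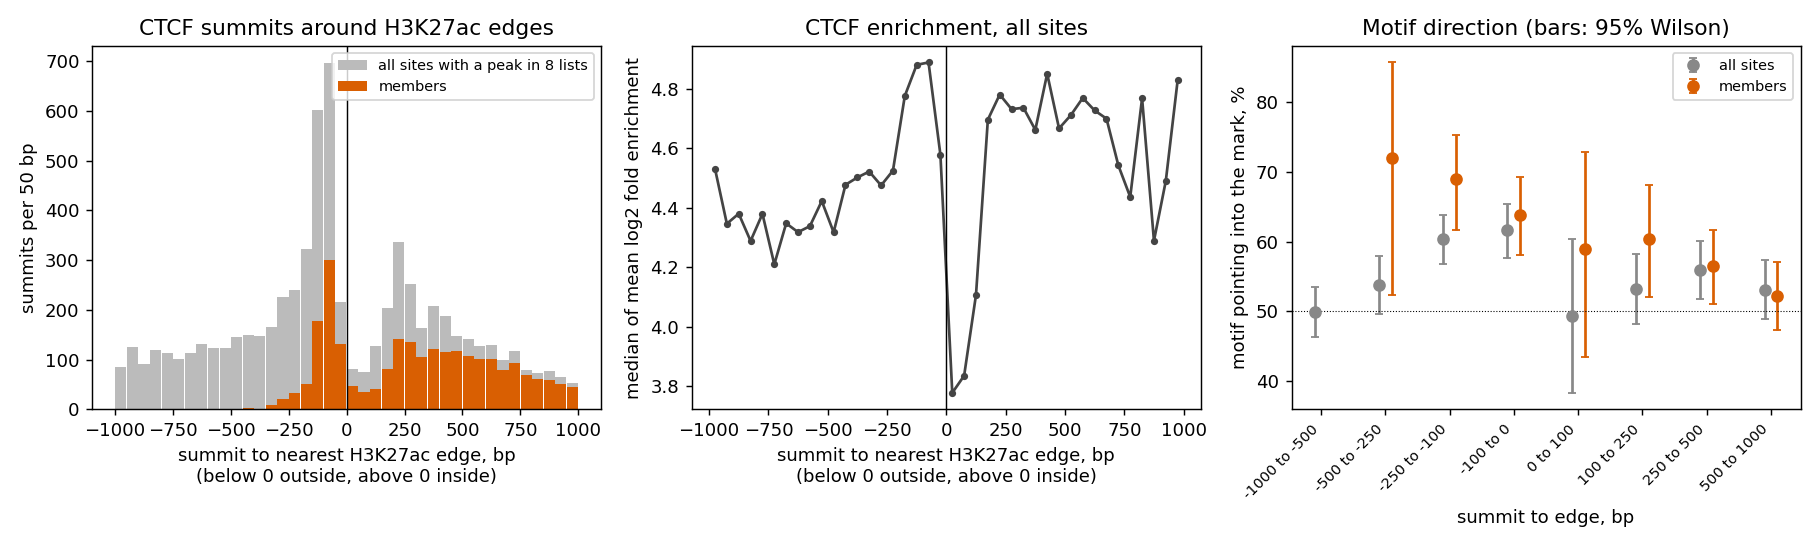
Left, number of CTCF summits per 50 bp against the distance to the nearest edge of an H3K27ac interval (below 0 outside, above 0 inside), for all sites called in 8 lists (grey) and for members (orange). Middle, median of the mean log2 fold enrichment of all such sites at each distance, which dips just inside the edge. Right, percent of motifs (1% threshold) pointing into the mark by distance, with 95% Wilson intervals, where members up to 250 bp outside lay above 50%.

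H3K27ac peaks at members had higher medians of width and fold enrichment than shared peaks without CTCF, and so did shared peaks with a CTCF site that was no member. In WT, the 3292 peaks that held a member had a median width of 1733 bp and a median fold enrichment of 5.41. The 17266 WT peaks shared between genotypes with no CTCF site had 1109 bp and 3.43, and the 4042 with CTCF sites but no member 1992 bp and 5.17. In CTCF-K20R, 3292 peaks held a member, with 2033 bp and 5.24, shared peaks with no CTCF site had 1280 bp and 3.55, and those with CTCF sites but no member had 2285 bp and 4.80. A wide peak is more likely to overlap a site, so the width is in part a consequence of the rule. H3K27ac had 1 library per genotype, so the following difference has no replicate check. The median log2 ratio of CTCF-K20R over WT fold enrichment was -0.0464 at members, -0.113 at the 2331 near start sites and 0.0733 at the 1219 farther away, and 0.0397 at shared peaks with no CTCF site. Of 3550 members, 31 were more than 1 log2 higher in CTCF-K20R and 37 more than 1 log2 lower.

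Members were spread thinly over acetylated intervals. Of 3254 intervals, 2989 held 1 member, 238 held 2, 23 held 3 and 4 held 4. The widest interval with 4 members, chr7:127903868-127936418, spanned Kat8, the gene of an H4K16 acetyltransferase, and the serine protease genes Prss36 and Prss8. Its members had mean fold enrichments of 17.5 to 51.6. The next, chr10:80141002-80162135, lay at Atp5d, which encodes a subunit of mitochondrial ATP synthase, and Midn. Another, chr11:120569858-120586959, lay at Arhgdia and Gm3807. Motifs at Atp5d and Midn were split evenly, 2 on each strand, and at Arhgdia 3 were on the plus strand and 1 on the minus strand.

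Gene groups differed in how many of their genes had a member within 3 kb of a start site. Over all 21924 protein-coding genes, 48.8% had H3K27ac in both genotypes, 23.8% had a site called in all 8 lists and 10.4% had a member. Ribosomal protein genes, which are highly active in growing cells, had a member at 30 of 84 genes, and 82 of 84 were marked in both genotypes. Rplp0 (mean fold enrichment 57.0), Rpl36 (54.1) and Rps3a1 (46.4) were among the highest of this list. At Rplp0 the 8 values were 39.8 and 37.6 in D0_WT, 77.3 and 73.7 in D0_K20R, 51.1 and 50.5 in D4_WT, and 45.5 and 111 in D4_K20R. The D0_K20R values were thus above all of WT, while D4_K20R spanned D4_WT, without adjustment for differences between library medians.

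A list of genes for CTCF, cohesin and acetylation, with Hdac6, Crebbp and Ep300 among them, had 20 genes found, all marked in both genotypes. A member lay at 7 of the 20, none of them Hdac6, Crebbp or Ep300. The highest were Pds5b (58.0) and Stag1 (53.0), which encode a cohesin regulator and a cohesin subunit, followed by Esco1 (52.9), an acetyltransferase gene that acts on cohesin, and Stag2 (30.1). The Ctcf gene had a member 242 bp from its start site with a mean fold enrichment of 19.4 and strong H3K27ac (12.1 in WT and 13.1 in CTCF-K20R). Its CTCF fold enrichment was 21.3 and 15.6 in D0_WT, 20.0 and 16.4 in D0_K20R, 20.7 and 18.3 in D4_WT, and 11.2 and 43.3 in D4_K20R. The groups overlapped, and the D4_K20R replicates were the most distant of the 8.

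Of 18 pluripotency genes, 11 were marked in both genotypes and 4 had a member, namely Sox2 (23.6), Sall4 (17.5), Tdgf1 (15.4) and Pou5f1 (9.93), which encodes Oct4. Of 20 genes in the mesoderm list, 3 were marked in both genotypes, Apex1 among them, and 2 had a member. Tbx6, a T-box gene of presomitic mesoderm, had a mean fold enrichment of 54.7, and Nodal, a ligand gene of the TGF-beta family, 12.8. At Tbx6 the values were 45.1 and 33.4 in D0_WT, 63.5 and 66.7 in D0_K20R, 57.5 and 55.2 in D4_WT, and 44.4 and 89.5 in D4_K20R. Genotypes overlapped at day 4. Nes, which encodes the intermediate filament nestin, was the 1 gene of 16 neural and endoderm genes with a member (42.6).

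No member lay near the 16 cardiac genes or the 39 Hox genes, although 4 and 12 of these genes had a site called in all 8 lists. The rule accounts for this where a gene lacked H3K27ac in 1 or both genotypes. Of the cardiac genes, 0 were marked in WT, 1 in CTCF-K20R and 0 in both. Of the Hox genes, 3 were marked in WT, 2 in CTCF-K20R and 1 in both, so most genes of these lists lacked the mark in both genotypes. Among 24 imprinted genes, 5 had a member, at 4 sites. The shared site of Peg10 and Sgce had a mean of 32.1, the pair at Meg3 32.3 and 21.5, and the shared site of Peg3 and Usp29 7.57. Replication-dependent histone genes had 7 member sites near 11 of 70 genes, from 10.2 at Hist1h3e to 27.8 at the site shared by Hist1h2ai, Hist1h2bl and Hist1h3h. These histone genes lie in clusters, so 1 site can count for several genes.

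Of the 5 strongest members, 4 had the summit within 80 bp of a start site. Gdf15, a stress-induced gene of the TGF-beta superfamily, held the site with the highest mean fold enrichment (98.4) in a coding exon 2175 bp from the nearest start site, at chr8:70629426-70631036. Its values were 77.1 and 92.0 in D0_WT, 257 and 221 in D0_K20R, 61.8 and 59.8 in D4_WT, and 50.5 and 117 in D4_K20R. D0_K20R was thus above every other library before adjustment for library medians. In the limma fit described below, its centred difference from D0_WT was 1.05 log2 (SE 0.37, adjusted p = 0.039 with 8 libraries). It was not called with the pairs counted once. The next were at the start sites of Rapgef1 (95.2), a guanine nucleotide exchange factor gene, Exosc8 (84.2), a subunit gene of the RNA exosome, Dnajc11 (82.3) and Nipsnap2 (82.0). Among the weakest were Aaed1 (4.49) and Mrps36 (5.25), whose highest values in any library were 7.02 and 6.38.

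The main comparison of the study was CTCF-K20R against WT at day 4. Log2 fold enrichment was centred on the median over all sites in each library and fitted with limma, with Benjamini-Hochberg adjustment over all 36440 sites. Each of these had a peak in all 8 lists, so sites without a peak in CTCF-K20R were not tested, here or in the comparisons below. The balance of higher and lower calls therefore does not describe lost binding. With the pairs counted once, 206 members were higher in CTCF-K20R and 93 lower at an adjusted p below 0.05, 8.42% of members, against 7.8% of all sites tested (4.97% higher and 2.83% lower). With all 8 libraries as separate, 749 members were higher and 486 lower (34.8%), against 32.1% of all sites (17.8% higher and 14.3% lower). All of the 206 and 93 were also called with 8 libraries. The members' share was thus near the background in both fits, and their median difference was 0.06 log2. Groups did not overlap at 2404 members, against 67.3% of all sites. In this comparison the balance of directions depended on the scale. Without centring the 8 libraries gave 87 higher and 12 lower, on percentile ranks 329 and 394, and after quantile normalization 378 and 426. It also turned in the fit without D4_K20R replicate 2, to 413 higher and 452 lower. Library medians of log2 fold enrichment ranged from 3.92 to 4.77 before centring.

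Strength of the member went with the sign of its difference. Among 1406 members that ranked in the top 25% of all sites by mean enrichment, 153 were higher in CTCF-K20R and 4 lower at day 4 with the pairs counted once, and the median difference was 0.48 log2. Among 771 members in the bottom 25%, 0 were higher and 36 lower by limma with the pairs counted once (7 and 218 with 8 libraries), and the median was -0.49. The mean that ranked the sites includes the CTCF-K20R libraries compared here, so rank and difference are not independent. All sites gave a like picture, with medians of 0.40 and -0.42, so this is not particular to members. Enrichment was also spread more widely in the CTCF-K20R libraries, and its part in this pattern was not tested. The fit after quantile normalization, which gives all libraries 1 distribution, was not split by strength. By position, 62 of 729 members with the summit inside neither list were higher and 13 lower (8.50% and 1.78%), and 84 and 46 of 1926 with it inside both (4.36% and 2.39%). CpG island-like members gave 76 higher and 8 lower of 1314 (5.78% and 0.609%). Over all sites the shares were 4.97% and 2.83%, and over the top 25% of all sites 10.2% and 0.307%. Median fold enrichment was 33.0 with the summit inside neither, 22.4 inside both and 30.7 at CpG island-like members, so these splits are not separated from strength.

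**Figure D4:**
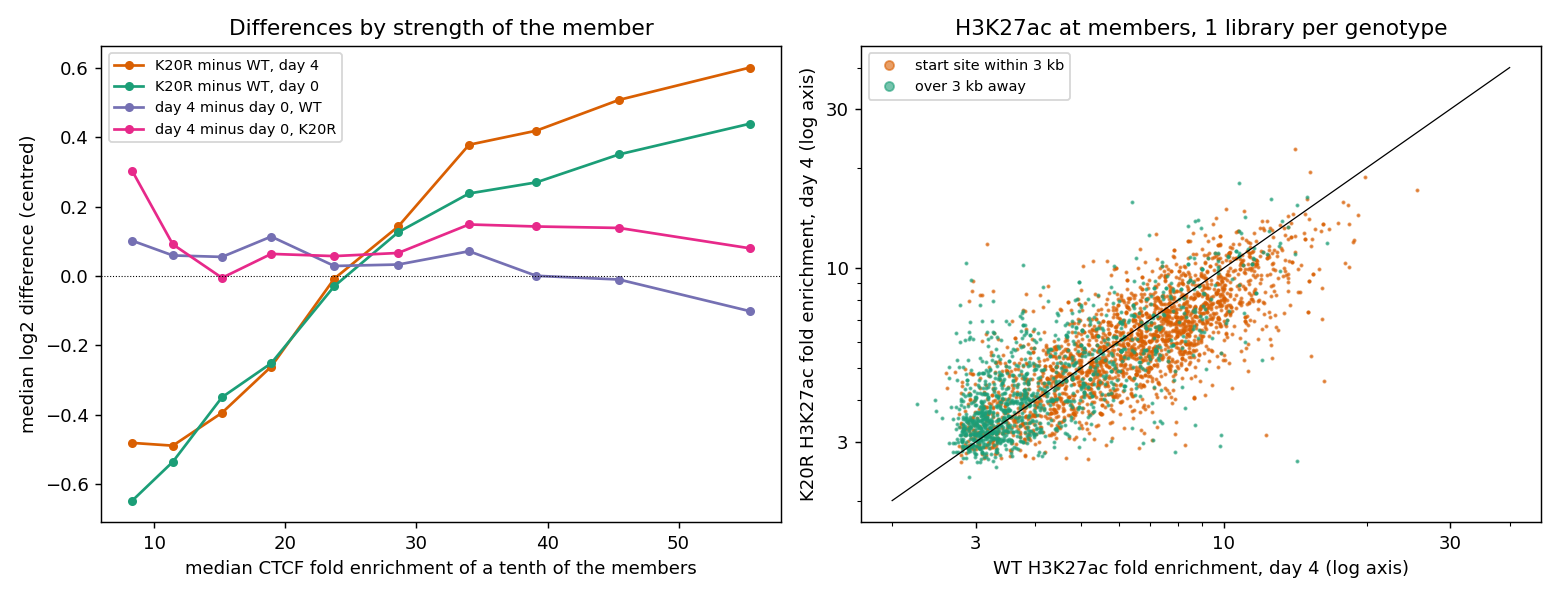
Left, median centred log2 difference in each of 10 equal groups of members ordered by mean CTCF enrichment (horizontal axis, median fold enrichment of the group), for 4 comparisons with 8 libraries. Both genotype comparisons ran from below 0 in weak members to above 0 in strong ones. Right, H3K27ac fold enrichment at day 4 in CTCF-K20R against WT for each member on log axes, near start sites (orange) or over 3 kb away (green), with the line of equality and 1 library per genotype.

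The largest rises at day 4 were at sites where D4_WT was low, which choosing by the size of the rise favours. Standard errors (SE) here and below are from the fit with 8 libraries. In an intron of Zfhx3, a homeobox transcription factor gene, the site chr8:108759407-108760396 (nearest start site of Gm38042) had values of 11.1 and 12.3 in D4_WT and 46.2 and 72.4 in D4_K20R. Its day 0 values were 34.0 and 25.2 in WT and 61.1 and 53.6 in CTCF-K20R. The genotypes did not overlap on either day, and the difference at day 4 was 2.17 ± 0.18 log2 (SE; limma adjusted p = 1.8e-06, and 0.00059 with the pairs counted once). At Nyap1 (chr5:137741001-137741694), values were 17.0 and 16.6 in D4_WT and 52.9 and 96.1 in D4_K20R, against 61.3 to 85.6 in the day 0 libraries. D4_WT stood below the other 6 libraries there, and the difference was 1.95 ± 0.22 (SE; limma adjusted p = 1.9e-05, and 0.007 counted once). Mir688 rose by 1.92 log2 (adjusted p = 0.016 counted once) and Zfp385a, a zinc finger gene, by 1.83 (adjusted p = 0.0036 counted once), both again with D4_WT as the lowest group.

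The largest falls at day 4 were picked for D4_K20R values far below D4_WT, so low enrichment in D4_K20R there is not a separate result. At chr11:53758588-53759044, 4767 bp from the start site of Mir7671, values were 18.2 and 17.2 in D4_WT and 4.07 and 4.09 in D4_K20R, and 17.0, 13.1, 8.15 and 9.68 at day 0 in the order of WT and CTCF-K20R. CTCF-K20R was below WT on both days, with a difference of -2.25 log2 at day 4 (SE 0.31; limma adjusted p = 6.2e-05, and 0.0069 counted once). In a coding exon of Men1, the gene of the tumour suppressor menin, the site chr19:6339749-6340642 (nearest start site of Map4k2) had 20.9 and 19.8 in D4_WT and 6.09 and 5.32 in D4_K20R. At day 0 it had 25.9 and 16 in WT and 12.2 and 8.70 in CTCF-K20R, so the genotypes did not overlap on either day. The difference was -1.97 at day 4 and -1.44 at day 0 (limma adjusted p = 0.01 and 0.044 counted once). Zfp704 was also lower at day 4, by -1.97 (adjusted p = 0.011 counted once), as was a site 14858 bp from Gm24432 on chromosome 18, by -2.18 (adjusted p = 0.0051 counted once).

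In mESCs at day 0, 192 members were higher in CTCF-K20R and 106 lower with the pairs counted once (8.39%), against 7.03% of all sites (4.42% higher and 2.62% lower). With 8 libraries these counts were 615 and 514, against 28.6% of all sites (14.9% and 13.7%), and groups did not overlap at 2359 members, against 65.9% of all sites. Without centring 390 were higher and 4 lower, and on recovered pileups 62 and 168, so the balance of directions depended on the scale at day 0 as well. At Stim1, the gene of a calcium sensor of the endoplasmic reticulum, values were 19.5 and 9.68 in D0_WT and 72.7 and 68.3 in D0_K20R, and 26.4, 37.5, 33.2 and 71.7 at day 4 in the order of WT and CTCF-K20R. The difference of 1.90 ± 0.20 log2 at day 0 (SE; limma adjusted p = 1.9e-05, and 0.0027 counted once) was 0.50 at day 4, where the replicates of CTCF-K20R lay far apart. Dhx8, a splicing helicase gene, had 24.2 and 21.8 in D0_WT and 117 and 104 in D0_K20R, a rise of 1.81 (adjusted p = 0.0044 counted once), with -0.21 at day 4 (adjusted p = 0.71 counted once). Trappc5, a subunit gene of a vesicle transport complex, rose by 1.79 (adjusted p = 0.0084 counted once).

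Among these 4 rises, Tcp11 passed the test on both days with the pairs counted once. It had 19 and 14.7 in D0_WT, 85.1 and 73.9 in D0_K20R, 26.5 and 25 in D4_WT, and 50.1 and 113 in D4_K20R. The differences were 1.79 and 1.41 log2 (limma adjusted p = 0.0039 and 0.0093 counted once). Falls at day 0 were led by a site in an intron of Myh9, a nonmuscle myosin gene (nearest start site of Gm22107), with 23.8 and 15.8 in D0_WT and 5.81 and 8.12 in D0_K20R, a difference of -1.95 (adjusted p = 0.019 counted once). Gm10434, at -1.94, an intron of Rab26 near Snord60, at -1.90, and Dnajc22, at -1.85, followed (adjusted p = 0.0078, 0.014 and 0.015 counted once).

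**Figure D5:**
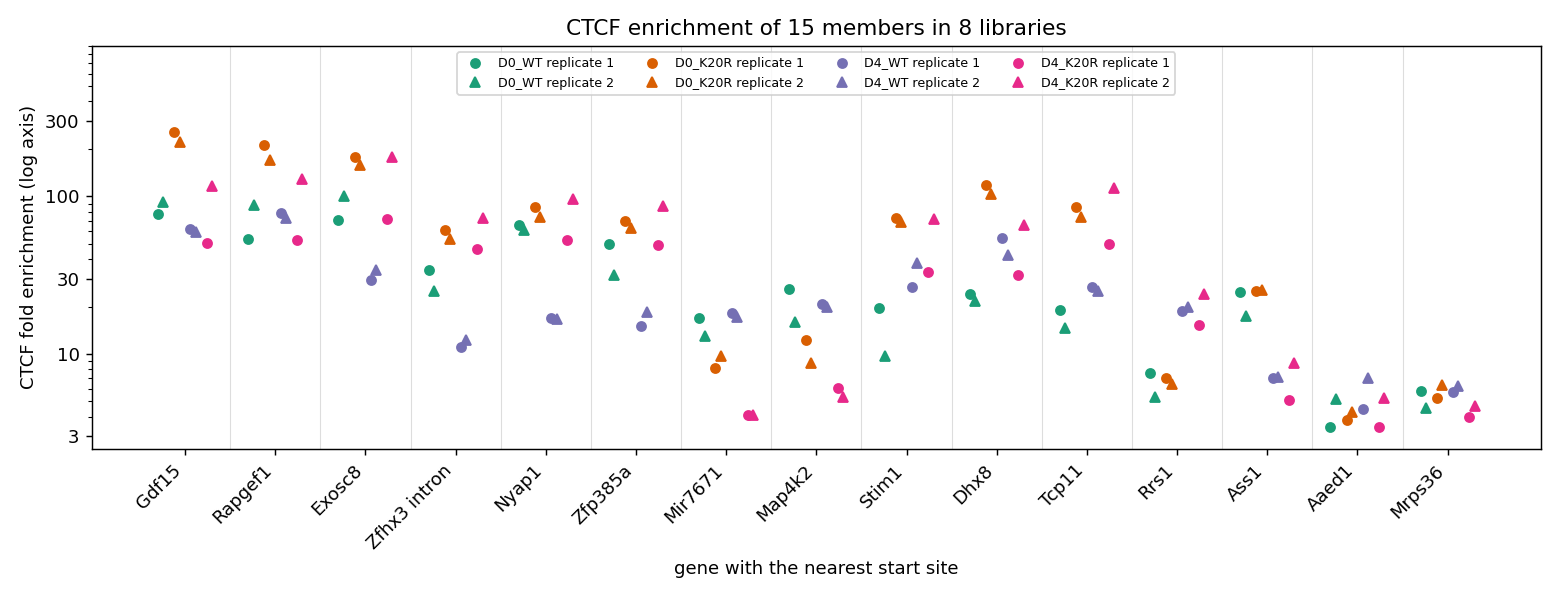
CTCF fold enrichment (log axis) of 15 of the named members in each of the 8 libraries, labelled by the gene with the nearest start site or, for Zfhx3, by the host gene. Colours mark the groups, circles replicate 1 and triangles replicate 2. D4_WT was the lowest group at the Zfhx3 intron, Nyap1 and Zfp385a, and D0_WT the lowest at Tcp11.

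The day comparison in WT cells set EBs against mESCs. With the pairs counted once, 75 were higher at day 4 and 56 lower (3.69%), against 4.62% of all sites (2.16% and 2.45%). With 8 libraries 457 were higher and 331 lower, against 24.8% of all sites (12% and 12.8%), and days did not overlap at 1998 members, against 62.8% of all sites. The split was 0 and 2 without centring, 22 and 51 on recovered pileups and 224 and 189 with quantile normalization and the pairs counted once. It turned to 302 and 480 in the fit without D0_WT replicate 1. Kmt5a, which encodes a histone H4 lysine 20 methyltransferase, had 6.90 and 3.83 in D0_WT and 14.6 and 18 in D4_WT, a rise of 1.67 log2 (limma adjusted p = 0.031 counted once). Bcar1, an adaptor gene of cell adhesion, rose by 1.63, Gm49436 by 1.62, and an intron of Suds3, a gene of the SIN3 corepressor (near 9530046B11Rik), by 1.62 (adjusted p = 0.038, 0.0084 and 0.02 counted once). The largest fall was at Nyap1, from 65.6 and 61.3 to 17.0 and 16.6, or -1.90 (adjusted p = 0.013 counted once). Falls at Ttc29, at Srrm2, a gene of nuclear speckles, and at Clcn2, a chloride channel gene, were -1.81, -1.79 and -1.74 (adjusted p = 0.016, 0.023 and 0.028 counted once).

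In CTCF-K20R cells, 65 members were higher at day 4 and 24 lower with the pairs counted once (2.51%), against 3.04% of all sites (1.81% and 1.23%). With 8 libraries the counts were 441 and 252, against 20.2% of all sites (10.9% and 9.31%), and days did not overlap at 2082 members, against 61.1% of all sites. Without centring the split was 1 and 21, and on recovered pileups 65 and 57. A site 3167 bp from the start of Gm38287 had the largest rise, from 4.11 and 5.40 in D0_K20R to 19.4 and 43.1 in D4_K20R, or 2.95 ± 0.27 log2 (SE; limma adjusted p = 2.7e-05, and 0.0026 counted once). In WT it rose from 12 and 7.65 to 25.1 and 24.1, or 1.38 (adjusted p = 0.039 counted once). Rrs1, a ribosome biogenesis gene, rose in both genotypes, from 7.61 and 5.37 to 18.8 and 19.9 in WT and from 7.04 and 6.46 to 15.4 and 23.9 in CTCF-K20R. These rises were 1.61 and 1.84 (limma adjusted p = 0.028 and 0.021 counted once), and Klhl24 and Adat1 rose in CTCF-K20R by 1.70 and 1.66 (adjusted p = 0.012 each counted once).

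Ass1, which encodes argininosuccinate synthase of the urea cycle, fell in both genotypes. Its values went from 24.8 and 17.3 to 7.03 and 7.09 in WT and from 25 and 25.5 to 5.12 and 8.74 in CTCF-K20R. The differences were -1.54 and -1.58 log2 (limma adjusted p = 0.03 and 0.034 counted once), and the days did not overlap in either genotype. Zbtb20, a zinc finger repressor gene, fell in CTCF-K20R by -1.61 (adjusted p = 0.0098 counted once), from 69.1 and 76.6 to 14.6 and 24.4. In WT it stayed between 23.8 and 31.9 in all 4 libraries. An intron of Rrn3, a gene for RNA polymerase I initiation (nearest start site of Gm27734), fell by -1.54 (adjusted p = 0.041 counted once). Gm16191 had -1.46 (adjusted p = 0.0017 with 8 libraries and 0.058 counted once).

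The genotype effects of the days themselves differed at few members once the pairs were counted once. The interaction term of limma called 4 members higher and 4 lower (0.225%), against 0.343% of all sites (0.2% and 0.143%), and 480 members had an unadjusted p below 0.05. With 8 libraries it called 271 and 202, against 12.9% of all sites (7.07% and 5.79%). Without centring and on recovered pileups limma called 0 members, where 282 and 168 had an unadjusted p below 0.05. A pair of genome segments stood out in earlier results of these data, and members in them followed the sites around them. On chromosome 14 from 40 to 70 Mb, the median difference of 51 members was -0.39 log2 at day 4 and -0.50 at day 0, against -0.50 and -0.55 over all 455 sites there. On chromosome 8 from 80 to 110 Mb, it was 0.28 and 0.30 over 77 members, against 0.30 and 0.24 over 541 sites.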

How the data were processed

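CTCF and H3K27ac ChIP-seq peak lists of 10 samples were used, with groups and replicate numbers taken from the labels; 4 input samples were not analysed here. Reads were trimmed (Trim Galore) and mapped to mm10 (Bowtie2) by the authors, who discarded poorly mapped reads, PCR duplicates and blacklisted regions and brought all CTCF libraries to an equal number of reads. MACS2 was then run on each library separately, in narrow mode for CTCF and in broad mode for H3K27ac. The input set against each library, and the H3K27ac depth, are not given in the sources used here. The deposited lists give fold enrichment (a ratio over local background), a −log10 p-value, a −log10 q-value and, for narrow peaks, a summit. The deposited integer score was not used.

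Peaks were merged where they shared at least 1 bp, and the strongest peak of each list gave a site its value. Read pileup and background were recovered from fold enrichment and −log10 p; 100% of 291520 values were whole within 0.01. Because lists hold no read counts, differences were fitted with limma 3.58.1 (R 4.3.3) on median-centred log2 fold enrichment, with group means, a trend and Benjamini-Hochberg adjustment over 36440 sites at 0.05. The planned fit held all 8 CTCF libraries, and averaging the 2 pairs within sampling noise was added. Standard errors of named sites are those of the fit with 8 libraries, which treats these pairs as separate. Where a pair was counted once, the lone value was assumed to vary like the other groups. The study describes the CTCF libraries as biological replicates; whether they came from separate cultures is not given in the sources used here, so p-values measure the spread between these libraries, which may be technical. On simulated day 4 data over 36440 sites with 8 libraries, 27 of 100 sites shifted by 1 log2 were recovered. Of 100 shifted by 2 log2, 91 were recovered, and there was 1 false call. The simulation shifted only these sites and drew independent noise for each library. It held neither pairs within sampling noise nor a wider spread in CTCF-K20R. Its counts therefore do not give the recovery or the false calls of the fits reported here. Sequences came from GRCm38 and start sites from GENCODE M21 basic. Scripts ran in Python 3.11.15 with pysam 0.24.0, scipy 1.17.1, matplotlib 3.10.9, pandas 2.3.3 and numpy 2.4.6.

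Members and gene lists were chosen with earlier results of these data known. Named sites were the 5 members with the highest and 3 with the lowest mean enrichment, the 4 largest rises and falls per contrast among called members whose groups did not overlap, the 3 intervals with most members, and up to 4 members per gene list. Alternatives covered thresholds, overlap and summit criteria, scales, blocking on the replicate number and omission of single libraries. Counting pairs once, the edge and direction measures and their alternatives were added after seeing the data. Some items that the rule for named sites would give are not reported here.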

Additional observations from a re-analysis of the deposited data

Results flagged for a closer look

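The genotype effect at day 4 differed from that at day 0 at 473 members by the interaction term of limma with 8 libraries, against 12.9% of all sites; 8 members remained with the pairs counted once. Among the named sites, 19 met this criterion. Most named sites were chosen for their large changes in the same fits, which makes a large interaction likely, so this number is no separate result. The effect was higher at day 4, in log2, at Nyap1 (2.08), Adat1 (1.99), Mir688 (1.69), the Zfhx3 intron near Gm38042 (1.66), Dnajc22 (1.59), Clcn2 (1.58), Gm38287 (1.57), Zfp385a (1.55), Klhl24 (1.45) and Gm10434 (1.40). It was lower at day 4 at Kmt5a (-2.16), Dhx8 (-2.02), Zbtb20 (-1.93), Gm24432 (-1.83), Gm49436 (-1.79), the Suds3 intron near 9530046B11Rik (-1.53), Zfp704 (-1.53), Stim1 (-1.41) and Trappc5 (-1.37). With the pairs counted once, the limma adjusted p of this difference was 0.043 at Adat1 and 0.037 at Zbtb20, and between 0.051 and 0.26 at the other 17. At Zbtb20 and Adat1 the named changes were in opposite directions. Zbtb20 was higher in CTCF-K20R at day 0 (1.06 log2) and lower at day 4 (-0.87, adjusted p = 0.054 counted once), and Adat1 was lower at day 0 (-1.25) and higher at day 4 (0.74, adjusted p = 0.13 counted once). Groups held 2 libraries each, too few to look for single outlying libraries.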

How the results depend on the processing

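Of 237 alternatives computed, 104 left out 1 library and the others kept all libraries. Of those that kept all libraries, 76 were labelled the same as the main result, 50 moved, 6 reversed in sign and 1 weaker. Of the 104, 90 were labelled the same, 12 moved and 2 reversed in sign. The label of the same did not always mean a like size. On members against unmarked sites at day 0, genotype effects of 0.0180 log2 (recovered pileups) and 0.0902 log2 (fold enrichment) counted as the same. Alternatives that count pairs once, and those of the summit-position and edge results, were chosen after seeing the data. Replicate numbers did not pair the samples (correlations of deviations from -0.034 to 0.028), and the replicate block gave 1377 called members for genotype at day 4, 1280 at day 0, 900 and 808 for the day in WT and CTCF-K20R, and 577 for the interaction, against 1235, 1129, 788, 693 and 473. Of all sites the block called 34.9%, 31.4%, 27.4%, 22.9% and 15.5%, against 32.1%, 28.6%, 24.8%, 20.2% and 12.9%.

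In that order, called members numbered 99, 394, 2, 22 and 0 of 3550 without centring (all sites 1.73%, 8.32%, 0.195%, 0.991% and 0%). With peaks of −log10 q of at least 5 they numbered 656, 604, 437, 372 and 288 of 1912 (all sites 31.6%, 29.2%, 26.0%, 21.3% and 14.6%). With the summit inside the mark they numbered 619, 591, 402, 340 and 232 of 1926 (all sites 32.1%, 28.6%, 24.8%, 20.2% and 12.9%). Pairs counted once gave 299, 298, 131, 89 and 8 (all sites 7.80%, 7.03%, 4.62%, 3.04% and 0.343%). When quantile normalization was added to that, the counts were 96, 144, 413, 0 and 27 (all sites 2.32%, 3.72%, 12.2%, 0% and 0.637%). Where limma called 0 members, 506 (day in CTCF-K20R) and 282 (interaction without centring) had an unadjusted p below 0.05. Recovered pileups gave 230 for genotype at day 0, 73 and 122 for the day, and 0 for the interaction (168 at an unadjusted p below 0.05). Of all sites they called 5.40%, 3.60%, 4.30% and 0%. Ranks gave 723 for genotype at day 4 (all sites 20.0%) and 279 for the day in CTCF-K20R (8.89%). Quantile normalization alone gave 804, 1192 and 425 for genotype at day 4 and the day in WT and CTCF-K20R (all sites 21.8%, 34.8% and 10.9%). Leaving out 1 library gave 543 to 1442, 533 to 1286, 315 to 918, 223 to 875 and 179 to 614. In the same fits the shares of all sites were 15.1% and 36.2%, 13.1% and 32.6%, 10.9% and 28.3%, 7.13% and 23.9%, and 4.86% and 14.2%. The lowest counts came without either library of D4_WT (613 and 543 for genotype at day 4, 331 and 315 for the day in WT) or of D0_K20R (533 and 551 for genotype at day 0, 225 and 223 for the day in CTCF-K20R), the pairs within sampling noise. The cause of the other changes was not tested.

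Sites with the summit inside both lists exceeded all sites with the summit inside neither by 0.064 log2. The genotype effect on this summit contrast was -0.0964 at day 4, -0.0856 at day 0 and -0.0910 log2 over both. On the contrast of members with unmarked sites, the genotype effect on ranks was -3.06 points at day 4, -0.0175 at day 0 and -1.54 over both. In log2, the effect on members against unmarked sites ranged from -0.0274 (without D4_K20R replicate 2) to 0.214 at day 4 when 1 library was left out. At day 0 it ranged from -0.0118 (without D0_WT replicate 1) to 0.192. Members numbered 1912 with the stricter peaks and 1926 with the summit inside the mark, or 5.65% and 5.29% of sites, against 7.49% with an overlap of at least 200 bp and 7.63% with summit windows. The outer part held 65.5% with WT peaks, 58.8% with CTCF-K20R peaks, 52.6% in intervals of at least 1 kb and 57.8% far from start sites. Start sites lay within 1 kb of 52.3%, within 500 bp of 41.0% and, protein-coding ones, within 3 kb of 59.7%. A motif was found in 55.9% at 1%, 88.5% within 50 bp and 88.4% far from start sites. H3K27ac had 1 library per genotype, and peak lists show no site below the calling threshold.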
